A study of Homo sapiens with 9 samples.

Results

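PIK3CA H1047R knock-in MCF-10A cells were compared with parental MCF-10A cells (WT), gene by gene, over 3 libraries of each. A gene was kept where at least 3 of these 6 libraries reached 1 CPM (counts scaled to a library total of 1000000). This kept 16510 of the 60609 genes in the count tables, of which 12934 were protein-coding and 2575 were annotated as long noncoding RNAs. Of the genes kept, 15141 reached 1 CPM in all 6 libraries, 475 only in the 3 H1047R libraries and 319 only in the 3 WT libraries. Genes of the last 2 kinds entered because they were high in 1 group, so they had to differ.

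MCF-10A is an immortalised, non-tumorigenic line of human breast epithelium. The series holds 9 libraries of 3 genotypes (WT, and isogenic knock-ins of E545K or H1047R), made from total RNA depleted of ribosomal RNA and sequenced as pairs of 150-base reads. WT cells were kept in medium with 5% horse serum and 20 ng/ml EGF, the H1047R cells in the same medium with no EGF. For the last 24 h both were in assay medium with 1% stripped serum and 0.2 ng/ml EGF, and insulin, hydrocortisone and cholera toxin were present throughout in both groups. Genotype therefore cannot be told apart from the history of EGF, nor from the count table, since the H1047R libraries were counted in a separate run. The sources used here do not say whether the H1047R line is a single clone or whether replicates were separate cultures, so p-values measure the spread between these libraries.

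PIK3CA encodes p110 alpha, the catalytic subunit of a lipid kinase that turns PIP2 into PIP3 at the plasma membrane. PIP3 recruits and activates AKT, which drives mTOR complex 1 and keeps FOXO transcription factors out of the nucleus, while lipid phosphatases remove PIP3 or its products. H1047R is a hotspot mutation of the kinase domain that raises the activity of the enzyme, and it is frequent in breast cancer. In MCF-10A cells EGF is among the growth factors that feed this pathway.

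The mutated codon is shown in its place because the whole comparison rests on it. It lies in the last exon (exon 21 of 21) of PIK3CA, in coding sequence, in this window of the hg38 reference (chr3:179234251-179234343, + strand), where the capitals mark the mutated codon, a histidine codon, at bases 179234296 to 179234298. The window is the reference sequence; the count tables hold no allele, so the knock-in itself was not checked from them.
PIK3CA mutated codon and flanks: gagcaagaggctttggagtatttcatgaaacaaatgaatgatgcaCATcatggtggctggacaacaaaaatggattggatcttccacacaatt

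PIK3CA (ENSG00000121879.5, chr3:179148114-179240093) was counted at 42.2, 44.6 and 46.1 CPM in the WT libraries and at 40.7, 43 and 42.6 CPM in the H1047R libraries. The groups overlapped. Its log2 fold change, H1047R over WT, was -0.07 (standard error 0.04, adjusted p = 0.174), from edgeR's quasi-likelihood test with Benjamini-Hochberg adjustment over all 16510 genes, the test behind every adjusted p and call given here (threshold 0.05). Other genes overlap 35.2% of its exon bases. With scaling by library totals alone the value was -0.15 with an adjusted p of 0.014, and with a looser filter on low counts -0.14 with 0.0249, so whether PIK3CA was called depended on the scaling and the filter.

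The libraries were deep and unequal. Gene counts summed to between 95091894 and 136132315 in WT and between 377093507 and 605972919 in H1047R, each mate of a read pair counted by itself, so that 3 counts came to 0.0214 to 0.0306 CPM in WT and 0.00509 to 0.00829 CPM in H1047R. The biological coefficient of variation was 0.0292 in WT and 0.0959 in H1047R. Protein-coding genes took 86.0% ± 0.0519 (SD, n = 3) of the counts in WT and 77.8% ± 0.246 (SD, n = 3) in H1047R, while small RNAs of the class misc_RNA, mostly 7SL and 7SK, took 4.71% ± 0.0324 and 8.76% ± 0.189. WT replicate 1 stood apart at 22 genes, where it was at least 4 times the other WT libraries, and 2 of these, KRT19 and NPY1R, were among the genes tested. KRT19, a luminal keratin, had 9.47, 1.54 and 1.61 CPM in WT, and TFF1, an oestrogen-induced secreted peptide below the filter, had 9.64, 0.487 and 0.714 CPM (both named after their values were seen). PGR and GFRA1, like TFF1 genes of hormone-responsive luminal cells, were also among the 22, with 0.892, 0.101 and 0.102 CPM and 2.63, 0.223 and 0.285 CPM in WT. Where these reads came from was not tested.

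The basal identity of the line was present in both groups. All 15 basal breast markers were at 1 CPM or more in every library, and their summed level ranged from 35379 to 36045 CPM in WT and from 36462 to 37909 CPM in H1047R. KRT5, the main basal keratin, had 13458, 13546 and 13155 CPM in WT and 16385, 16213 and 15583 CPM in H1047R. Of 23 luminal markers 9 were tested. The summed level of all 23, most of it KRT8 and KRT18, ranged from 1439 to 1549 CPM in WT (the highest being replicate 1) and from 644 to 728 CPM in H1047R. Of the 9 tested, 5 fell and 2 rose, MUC1 by 1.59 and GATA3, a luminal transcription factor gene, by 1.11, so the sum does not stand for every member. Of 13 blood cell markers 7, PTPRC, CD3E and HBB among them, were below 0.1 CPM in every library, as were CDH5, CLDN5 and EMCN of the 9 endothelial markers and LUM, PDGFRA and TCF21 of the 14 fibroblast markers. Other markers of these lists were present: the fibroblast sum ranged from 202 to 206 CPM in WT and from 206 to 241 CPM in H1047R, the blood sum from 16.3 to 16.9 and from 9.2 to 10.2 CPM, and the endothelial sum from 8.4 to 10.2 and from 21.3 to 24.4 CPM. KDR, a VEGF receptor gene and the 1 endothelial marker tested, rose by 1.41. Of 6 fibroblast markers tested 3 rose, MFAP5 by 4.07, and 2 fell, COL6A3 (log2 fold change -6.23) and DCN (-1.80). Of 3 blood cell markers tested 1 rose, ITGAM by 2.09, and 2 fell, CD14 (-0.99) and CD68 (-0.98). Of these fibroblast markers 2, and of these blood cell markers 1, had passed the filter through 1 group alone. The part of such cells in the other results was not tested. In such bulk RNA, fewer cells of a kind and less RNA per cell cannot be told apart.

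At an adjusted p under 0.05, 11612 of the 16510 genes were called (70.3%), 5867 of them higher (35.5%) and 5745 lower (34.8%) in H1047R. Counts of list members called higher or lower are to be read beside these 35.5% and 34.8%. The 3 libraries of each group did not overlap for 12287 genes (74.4%). A call was therefore the common outcome here, and sizes tell more than counts: 1229 genes were called and at least 2-fold higher (7.44%) and 914 called and at least 2-fold lower (5.54%). Among the 15141 genes at 1 CPM in all 6 libraries these shares were 4.82% and 4.15%. The median log2 fold change over all genes was 0.01, and the middle 50% of genes lay between -0.30 and 0.32. With scaling by library totals the median was -0.08 and 40.9% of the calls were higher, against 50.5% in the main scaling.

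**Figure D1:**
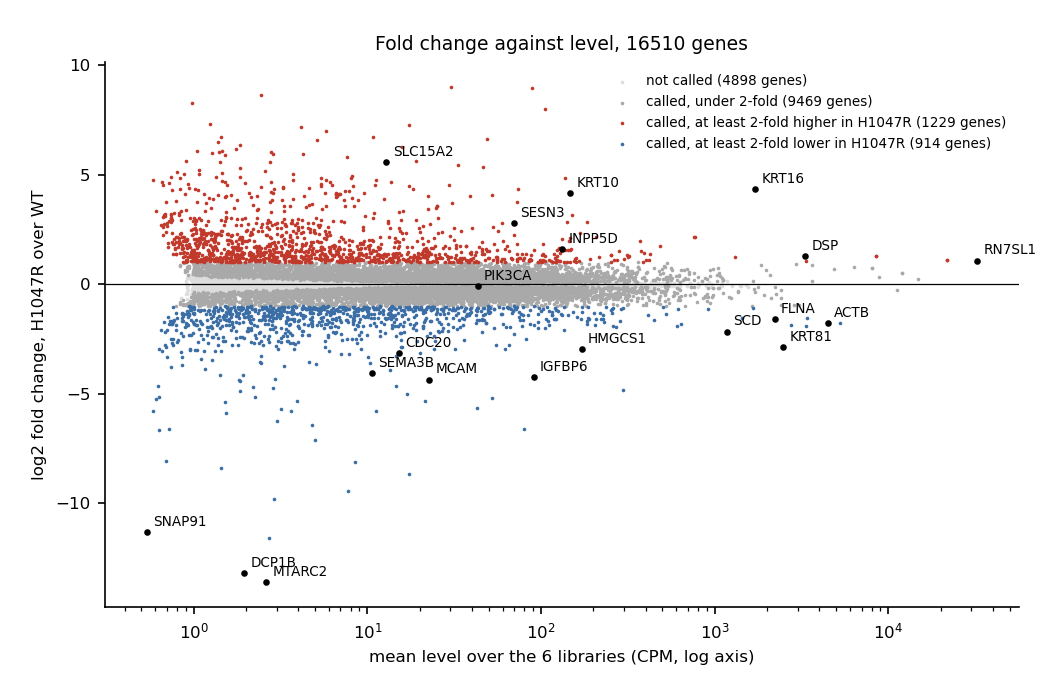
Each point is 1 of the 16510 genes, with its mean level over the 6 libraries (CPM, log axis) on the x axis and its log2 fold change, H1047R over WT, on the y axis. The 1229 genes at least 2-fold higher and the 914 at least 2-fold lower are coloured, and PIK3CA lies near 0. MTARC2, DCP1B and SNAP91 had no count in any H1047R library, so their place at the bottom is set by the fit and not by a measured ratio.

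Several genes that remove PIP3 or hold the catalytic subunit in check were higher in H1047R. Of 17 tested genes for PI 3-kinase subunits and PIP3 phosphatases, 12 rose and 2 fell, with a median of 0.19. INPP5D encodes SHIP1, which removes the 5-phosphate of PIP3. It had 64.5, 66.5 and 65.6 CPM in WT and 200, 196 and 202 CPM in H1047R, far apart with little spread. Its log2 fold change was 1.60 (standard error 0.03, adjusted p = 7.16e-10). PIK3IP1, a membrane inhibitor of p110, rose by 1.63 on the log2 scale from 4.44 ± 0.589 to 13.8 ± 1.06 CPM (SD, n = 3 each).

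The regulatory subunit genes PIK3R1, PIK3R2 and PIK3R3 rose. PIK3R1, for p85 alpha, rose by 0.99 (76.5 to 78.0 CPM in WT, 139 to 162 CPM in H1047R), and PIK3R3, for p55 gamma, rose by 1.53. PIK3R2, for p85 beta, rose by 0.19, with other genes over 86.5% of its exon bases. INPP4B, a 4-phosphatase that acts on PI(3,4)P2, rose by 1.18. The 2 genes that fell were INPPL1, for the related 5-phosphatase SHIP2, at -0.56 and the catalytic subunit gene PIK3CD at -0.44. Per kilobase of exon, PIK3R1 in H1047R (14.3 CPM per kb) stood above PIK3CA (4.36 CPM per kb), as it did in WT (7.19 and 4.58 CPM per kb).

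Of 21 tested genes for AKT, the mTOR complexes and S6 kinase 8 rose (38.1%) and 9 fell (42.9%), near the 35.5% and 34.8% of all genes, so only single members are described. DEPTOR, an inhibitor within the mTOR complexes, rose by 1.44 and TSC2, a brake on mTOR complex 1, by 0.53. AKT1 fell by 0.45, from 146, 152 and 150 CPM to 109, 107 and 112 CPM. EIF4EBP1, the translation repressor that mTOR phosphorylates, fell by 0.84. AKT1 was lower in every H1047R library than in any WT library.

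FOXO factors and genes known as their targets mostly rose, 13 of 22 tested against 6 that fell (median 0.40). SESN3, a sestrin that restrains mTOR complex 1, had 17.6, 17.6 and 17.1 CPM in WT and 114, 128 and 122 CPM in H1047R (ENSG00000149212.12, chr11:95165513-95232541). Its rise of 2.80 (standard error 0.05, adjusted p = 3.33e-10) was the steepest of the list. FOXO3 rose by 0.80 and FOXO1 by 0.58, PDK4, a kinase that inhibits pyruvate dehydrogenase, by 1.61, and BCL6, a transcriptional repressor, by 1.52. GADD45A at -0.97, the insulin receptor substrate IRS2 at -0.72 and KLF6 at -0.64 went the other way.

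Ligands of the EGF system moved in both directions while EGFR itself was not called. Of 16 tested genes for EGFR family receptors, ligands and their processing, 10 rose and 4 fell (median 0.28). EPGN, the ligand epigen, had 58.6, 57.4 and 61.5 CPM in WT and 237, 243 and 211 CPM in H1047R. It was the most abundant ligand named here in both groups and rose by 1.96. TGFA rose by 0.79, HBEGF by 0.69 and NRG4 by 1.47, though other genes overlap 38.2% of NRG4's exon bases. NRG1, a ligand of ERBB3 and ERBB4, fell by 2.66, from 2.20, 1.94 and 2.10 CPM to 0.298, 0.339 and 0.348 CPM. It passed the filter only through the WT libraries, so it had to differ. At a mean of 5 CPM 2 of the list were called lower and 0 at least 2-fold lower, against 4 and 1 here. EGFR had 703, 702 and 709 CPM in WT and 688, 724 and 776 CPM in H1047R, so the groups overlapped and it was not called (0.05, adjusted p = 0.358). Without H1047R replicate 1 EGFR was called higher (0.09, adjusted p = 0.0222).

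Feedback and immediate early genes of the ERK pathway rose in 19 of 22 cases and fell in 2 (median 0.70). ETV5, a PEA3 family factor induced by ERK, had 0.235, 0.406 and 0.571 CPM in WT and 2.46, 1.82 and 1.73 CPM in H1047R, a rise of 2.35. DUSP6, the phosphatase that removes phosphate from ERK, rose by 1.94, with other genes over 28.6% of its exon bases. SPRY1 rose by 1.44, EGR2 by 1.26 and EGR3 by 1.18. The most abundant of these genes, EGR1, had 583, 580 and 567 CPM in WT and 607, 599 and 560 CPM in H1047R, overlapping and not called. FOSB, at -0.41, and MYC, at -0.34, fell. Of the 22 genes tested, 3, ETV5 among them, passed the filter only through the H1047R or only through the WT libraries. These 3 had to differ. At a mean of 5 CPM, which kept fewer genes, 12 were called higher and 3 at least 2-fold higher, against 19 and 7 here.

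**Figure D2:**
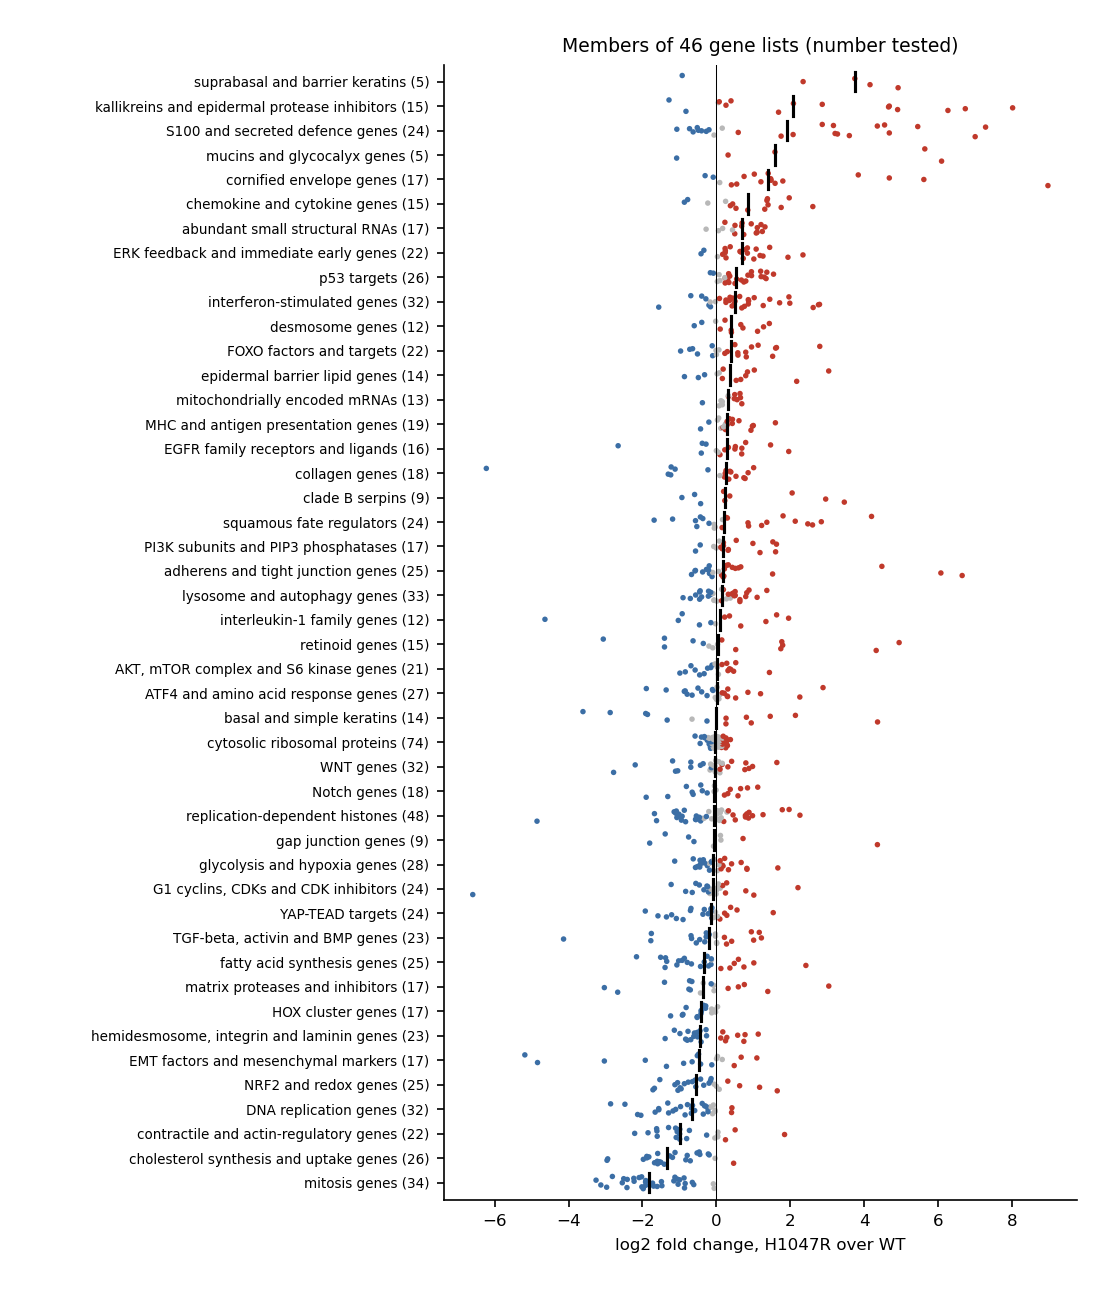
Each row is a gene list with the number of its members tested, ordered by median, and each point is a member at its log2 fold change, H1047R over WT (red called higher, blue called lower, grey not called; black bars are medians). Mitosis genes sit at the bottom (median -1.82) and suprabasal keratins at the top (median 3.75, 5 genes).

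Cell division genes were lower in H1047R. Of 34 mitosis genes tested 32 fell and 0 rose (background 34.8% lower and 35.5% higher), 26 of them at least 2-fold, with a median of -1.82. By edgeR 0 were higher at an unadjusted p under 0.05, and DESeq2 and limma-voom called 0 higher. CDC20, the activator of the anaphase-promoting complex, had 25.9, 28.2 and 27.6 CPM in WT and 3.56, 2.73 and 3.09 CPM in H1047R, a fall of 3.13 on the log2 scale (standard error 0.09). FOXM1, the transcription factor of the G2/M programme, fell by 2.55, BIRC5, for survivin, by 2.97, UBE2C by 2.81 and PLK1 by 2.51. CCNB1 fell less, by 1.47, and CDK1 by 1.04. Of the 34 genes, 28 were at 1 CPM or more in all 6 libraries.

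DNA replication genes followed, with 25 of 32 tested lower, 2 higher and a median of -0.66. TK1, the thymidine kinase of S phase, had 28.4, 28.4 and 25.8 CPM in WT and 3.97, 3.36 and 4.05 CPM in H1047R (-2.86, adjusted p = 3.09e-09). RRM2, for the ribonucleotide reductase subunit of S phase, fell by 2.47, and CDT1, which loads the MCM helicase, by 2.13. PCNA rose by 0.42, from 21.9, 21.6 and 22.8 CPM to 32, 28.3 and 28.6 CPM, and GINS3 by 0.41. PCNA is also a known p53 target.

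Genes of the G1 phase went both ways, 6 up (25%) and 10 down (41.7%) of 24 tested, beside 35.5% and 34.8% of all genes. CDKN1A, for the CDK inhibitor p21, had 257, 269 and 263 CPM in WT and 447, 475 and 452 CPM in H1047R, a rise of 0.80. E2F2 rose by 2.21 from about 1 CPM, while CDK2 fell by 0.65, CDK6 by 0.83 and E2F8 by 1.22. Cyclin D genes moved apart: CCND1 rose by 1.01 and CCND2 fell by 6.59, from 158, 160 and 157 CPM to 1.97, 1.49 and 1.51 CPM. The mRNAs of replication-dependent histones lack poly(A) tails and are kept by ribosomal depletion. Of 48 such genes tested 14 rose (29.2%) and 21 fell (43.8%), beside 35.5% and 34.8% of all genes. Of the 48, 4 passed the filter through 1 group alone. At a mean of 5 CPM 4 were called lower and 0 at least 2-fold lower, against 21 and 9 here. The median was then 0.225, against -0.066 here. H1-3 fell by 4.85 and H3C11 by 1.68, whereas H4C9 rose by 1.97 and H4C8 by 1.78.

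Promoters of 5 of these genes are shown so that sequence elements of cell cycle promoters can be read in place. They are RefSeq promoters on GRCh38.p14, 250 bases before to 50 bases after the annotated start, with 28 of the 34 mitosis genes and 28 of the 32 replication genes in the table. Capitals mark matches on either strand to TTTGAA, the core of the cell cycle homology region through which the DREAM and MuvB complexes act, for the 3 mitosis genes with the largest falls among those that hold it. NUF2 encodes a kinetochore protein.
CDC20 (chr1:43358731-43359030, + strand): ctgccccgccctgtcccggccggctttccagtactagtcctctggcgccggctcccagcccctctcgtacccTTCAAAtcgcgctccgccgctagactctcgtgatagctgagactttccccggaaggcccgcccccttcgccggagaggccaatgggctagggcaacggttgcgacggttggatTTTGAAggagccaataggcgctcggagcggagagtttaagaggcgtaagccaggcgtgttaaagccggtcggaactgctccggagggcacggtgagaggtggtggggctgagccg
PLK1 (chr16:23678639-23678938, + strand): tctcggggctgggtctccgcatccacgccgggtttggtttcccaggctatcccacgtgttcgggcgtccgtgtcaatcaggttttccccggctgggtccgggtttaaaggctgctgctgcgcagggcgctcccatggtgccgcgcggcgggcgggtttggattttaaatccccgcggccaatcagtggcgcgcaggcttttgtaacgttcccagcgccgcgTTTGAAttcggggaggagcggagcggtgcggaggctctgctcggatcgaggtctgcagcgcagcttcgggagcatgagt
NUF2 (chr1:163321704-163322003, + strand): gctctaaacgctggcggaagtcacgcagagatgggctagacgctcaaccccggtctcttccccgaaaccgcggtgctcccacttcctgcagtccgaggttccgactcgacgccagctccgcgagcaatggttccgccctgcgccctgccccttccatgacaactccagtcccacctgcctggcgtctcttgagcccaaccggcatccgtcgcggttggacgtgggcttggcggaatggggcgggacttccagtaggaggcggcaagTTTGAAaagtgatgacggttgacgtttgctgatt

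The letters TTTGAA were present in 21 of the 34 RefSeq promoters of mitosis genes (61.8%), in 1 of the 37 of replication genes (2.7%) and in 15.2% of all 35116 promoters in the table. For TTTNGCGC, an E2F site, the shares were 8.82%, 32.4% and 1.79%, and for CCAAT, the letters bound by NF-Y, 73.5%, 64.9% and 34.6%. Of the promoters of all genes tested 10.6% held TTTGAA, beside 13.8% for genes called at least 2-fold lower and 13.2% for those at least 2-fold higher. Short words overlap and recur by base composition, and a match is not a bound site. The 2 replication genes with the largest falls among those that hold the E2F letters are shown with these in capitals; CDT1 fell by 2.13 and UHRF1 by 1.31.
CDT1 (chr16:88803539-88803838, + strand): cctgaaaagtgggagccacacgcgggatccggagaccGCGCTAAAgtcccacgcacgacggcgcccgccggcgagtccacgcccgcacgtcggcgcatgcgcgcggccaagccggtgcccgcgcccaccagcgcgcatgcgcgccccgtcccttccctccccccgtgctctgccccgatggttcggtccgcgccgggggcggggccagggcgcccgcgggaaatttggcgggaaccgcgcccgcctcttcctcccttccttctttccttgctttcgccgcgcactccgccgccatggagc
UHRF1 (chr19:4909894-4910193, + strand): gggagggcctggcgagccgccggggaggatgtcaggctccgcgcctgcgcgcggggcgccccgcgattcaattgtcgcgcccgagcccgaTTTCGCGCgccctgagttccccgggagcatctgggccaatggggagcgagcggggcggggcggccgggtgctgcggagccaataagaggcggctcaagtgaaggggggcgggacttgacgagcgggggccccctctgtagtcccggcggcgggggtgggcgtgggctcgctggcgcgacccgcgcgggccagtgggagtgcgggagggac

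p53 targets mostly rose, 20 of 26 tested against 2 that fell (median 0.53). MDM2, which degrades p53, had 142, 140 and 144 CPM in WT and 362, 362 and 361 CPM in H1047R, a rise of 1.35 (standard error 0.03). TIGAR, which lowers glycolytic flux, rose by 1.55, RRM2B, the p53-induced ribonucleotide reductase subunit, by 1.21 and PMAIP1, a BH3-only death gene, by 1.30. TP53I3, an oxidoreductase gene, was called lower at -0.16, a call lost in 3 of the 6 fits that left out 1 library.

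Squamous differentiation is the programme by which basal keratinocytes stop dividing, change keratins and build a crosslinked envelope. Its regulators split: 13 of 24 tested rose and 7 fell (median 0.22). GRHL1 and GRHL3, grainyhead-like factors of epidermal barrier genes, had 2.55 to 2.72 and 2.65 to 3.04 CPM in WT and 15.7 to 16.5 and 15 to 16.6 CPM in H1047R, rises of 2.60 and 2.48. OVOL1 rose by 2.14, KLF4 by 0.86 and TRPV3, a keratinocyte calcium channel, by 4.20. TP63, the master factor of the basal layer, fell by 0.43, and RIPK4, a kinase required for differentiation, by 1.18.

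Of 5 suprabasal and barrier keratins tested 4 rose, 2 of the 5 having passed the filter through 1 group alone. KRT10, the suprabasal type I keratin, had 15.6, 14.9 and 16.1 CPM in WT and 224, 291 and 318 CPM in H1047R (ENSG00000186395.8, chr17:40818117-40822614, log2 fold change 4.16, standard error 0.12). Its partner KRT1 rose by 4.92 but stayed at 2.25 to 3.0 CPM. KRT16, a keratin of activated keratinocytes, had 161, 161 and 153 CPM in WT and 2877, 3482 and 3420 CPM in H1047R (ENSG00000186832.9, chr17:41609778-41615899), a rise of 4.36. Per kilobase of exon KRT16 went from 63.9 to 1316 CPM per kb, still below KRT5 (3239 and 3886) and KRT17 (4056 and 3404).

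KRT8 fell by 1.91, KRT7 by 1.86 and KRT18 by 1.33, all keratins of simple and luminal epithelia. KRT7 had 4216, 4389 and 4339 CPM in WT and 1277, 1191 and 1089 CPM in H1047R. The hair-type keratins KRT81 and KRT86 also fell (log2 fold changes -2.87 and -3.61), with KRT81 going from 4335, 4349 and 4350 CPM to 788, 553 and 438 CPM. KRT81 and KRT86 are near-identical in sequence, as are KRT6A, KRT6B and KRT6C (0.81, 1.46 and 2.14), so the split of reads within each set is uncertain. Over the 14 basal and simple keratins tested, 7 rose and 6 fell. Of the suprabasal and barrier keratins KRT80 fell, by 0.92.

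**Figure D3:**
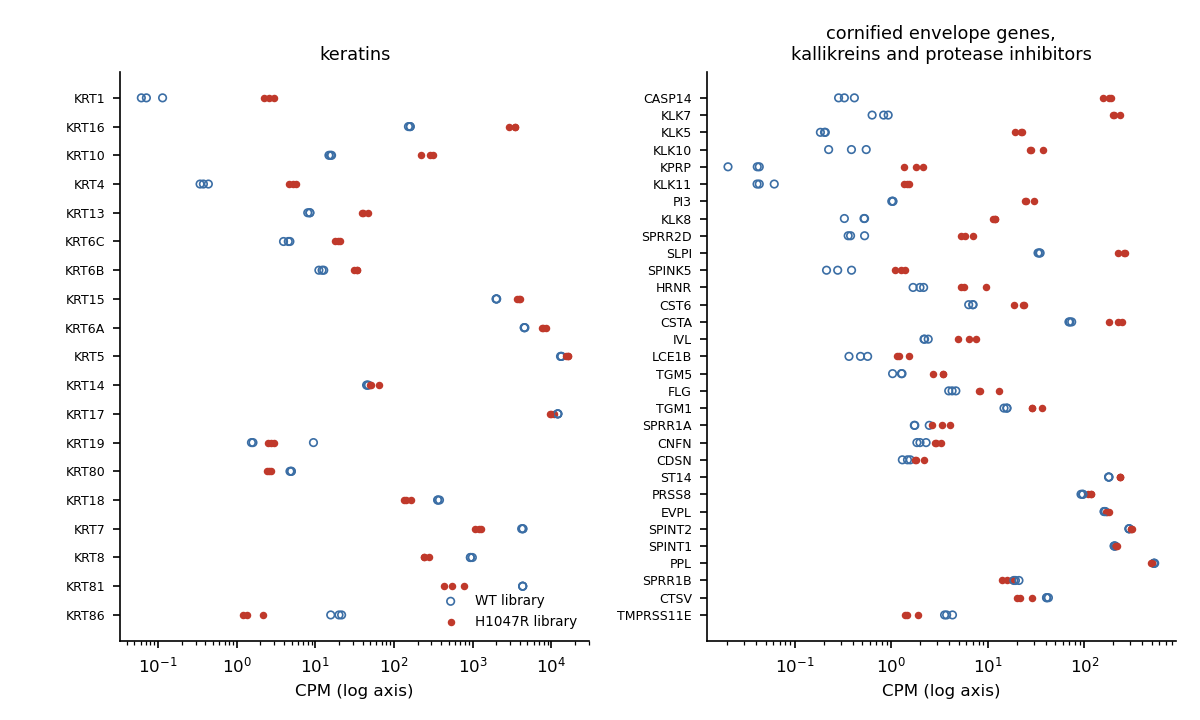
Each row is a tested gene and each point 1 library at its level (CPM, log axis; open blue WT, filled red H1047R), with genes ordered by log2 fold change. KRT1, KRT16 and KRT10 lie far to the right in H1047R, KRT81 and KRT86 far to the left, and KRT19 has 1 WT library (replicate 1, 9.47 CPM) away from the other 2.

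Of 37 cornified envelope genes only 17 passed the filter, and of these 14 rose and 2 fell (median 1.40), 4 of the 17 having passed through 1 group alone. CASP14, the caspase that cuts filaggrin, had 0.414, 0.284 and 0.326 CPM in WT and 157, 181 and 190 CPM in H1047R. IVL, for involucrin, rose by 1.48, from 2.18, 2.21 and 2.41 CPM to 7.62, 6.45 and 4.92 CPM, and TGM1, the transglutaminase that crosslinks the envelope, by 1.03. LORICRIN, the main protein of the mature envelope, was below the filter, with at most 0.0507 CPM in any library. SPRR1B at -0.30 and PPL, for periplakin, at -0.08 fell, the latter call being lost in 5 of the 6 fits that left out 1 library.

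AP-1 factors bind many promoters of this gene family, and the 2 cornified genes with the largest rises among those with TGANTCA in the RefSeq promoter are shown with these letters in capitals. The genes CASP14 and IVL are the members shown. The promoter table held 10 of the 17 tested genes, too few to give a share for the list; 7.71% of all its promoters hold the letters.
CASP14 (chr19:15049230-15049529, + strand): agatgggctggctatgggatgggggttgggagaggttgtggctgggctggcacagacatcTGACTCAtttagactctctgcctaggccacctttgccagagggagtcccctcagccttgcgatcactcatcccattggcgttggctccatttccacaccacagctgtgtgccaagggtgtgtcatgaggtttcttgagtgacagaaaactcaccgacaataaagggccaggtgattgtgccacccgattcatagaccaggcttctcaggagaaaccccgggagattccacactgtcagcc
IVL (chr1:152908296-152908595, + strand): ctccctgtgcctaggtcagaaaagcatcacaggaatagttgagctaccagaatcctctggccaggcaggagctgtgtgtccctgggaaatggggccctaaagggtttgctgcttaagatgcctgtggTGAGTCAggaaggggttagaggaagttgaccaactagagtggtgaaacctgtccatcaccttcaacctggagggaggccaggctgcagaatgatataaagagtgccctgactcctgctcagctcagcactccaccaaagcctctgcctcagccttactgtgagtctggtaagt

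Proteases and inhibitors of skin shedding mostly rose, 12 of 15 tested against 2 that fell (median 2.09), 6 of the 15 having passed through 1 group alone. KLK5, which starts the kallikrein cascade, had 0.207, 0.203 and 0.184 CPM in WT and 22.8, 22.1 and 19 CPM in H1047R, and KLK11 rose by 4.91 from under 0.1 CPM. Their inhibitors rose too, PI3 (elafin) by 4.68 and SPINK5 (LEKTI) by 2.09. Cathepsin V (CTSV) fell by 0.82 and TMPRSS11E by 1.28. Of 14 tested genes for barrier lipids 9 rose and 3 fell: ABCA12, the lipid transporter of lamellar granules, rose by 2.17 (75 to 76.1 CPM in WT, 317 to 372 CPM in H1047R) and SULT2B1 by 3.04, while ELOVL4 fell by 0.86.

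Desmosome genes rose in 9 of 12 cases and fell in 2 (median 0.41). DSP, for desmoplakin, had 1928, 1952 and 1940 CPM in WT and 4233, 4708 and 5175 CPM in H1047R, a rise of 1.28. DSC2 rose by 1.12 and DSG3 by 0.72, while JUP, for plakoglobin, fell by 0.60 and PKP2 by 0.39. Of 25 adherens and tight junction genes 14 rose and 9 fell. CLDN4, a sealing claudin, rose by 1.52 and POF1B, an actin-binding junction protein, by 4.48. CDH1, for E-cadherin, moved by 0.18, and the catenins CTNND1 and CTNNA1 fell by 0.58 and 0.37.

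Of 24 secreted defence and S100 genes tested 14 rose and 8 fell (median 1.92), 5 of the 24 having passed the filter through 1 group alone. S100A9, a subunit of calprotectin, had 1.67, 1.38 and 1.37 CPM in WT and 68.1, 64 and 63.4 CPM in H1047R, and SAA2, an acute-phase protein, went from 2.29 to 2.56 CPM up to 48.9 to 67.1 CPM. The abundant S100 genes fell: S100A2 by 1.07 (2351, 2310 and 2090 CPM in WT, 1405, 987 and 827 CPM in H1047R), S100A10 by 0.63 and S100A6 by 0.52. Of 9 clade B serpins tested 6 rose, SERPINB2 by 2.96 and SERPINB7 by 2.05, and 3 fell, 3 of the 9 having passed through 1 group alone. Of 22 mucin and glycocalyx genes 5 passed the filter, 2 of them through 1 group alone: MUC1 rose by 1.59 (57.5 to 63.9 CPM in WT, 181 to 186 CPM in H1047R) and the glycosyltransferase gene GALNT3 fell by 1.07.

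Of 22 contractile and actin-regulatory genes tested 15 fell and 3 rose (median -0.99). FLNA, for the actin crosslinker filamin A, had 3300, 3362 and 3341 CPM in WT and 1131, 1039 and 1129 CPM in H1047R, a fall of 1.60 (standard error 0.04). MYL9, the regulatory light chain of nonmuscle myosin, fell by 2.21, PDLIM7 by 1.85, TPM4 by 1.62 and TAGLN by 1.61, with other genes over 47.8% of TAGLN's exon bases. The actins were among the largest losses in CPM: ACTB had 6910, 6971 and 6904 CPM in WT and 2205, 1982 and 1937 CPM in H1047R (ENSG00000075624.16, chr7:5527148-5563784, -1.76), and ACTG1 fell by 1.53. TPM1 rose by 0.51, ACTA2 by 0.25 and MYH14 by 1.85, the last with 0.942, 0.223 and 0.245 CPM in WT, where replicate 1 was the highest. Without that library the log2 fold change of MYH14 was 2.93 and that of ACTA2 0.16. MYH14 passed the filter only through the H1047R libraries, so it had to differ. The call of ACTA2 was lost in 3 of the 6 fits that left out 1 library, with library totals and with edgeR's own filter.

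**Figure D4:**
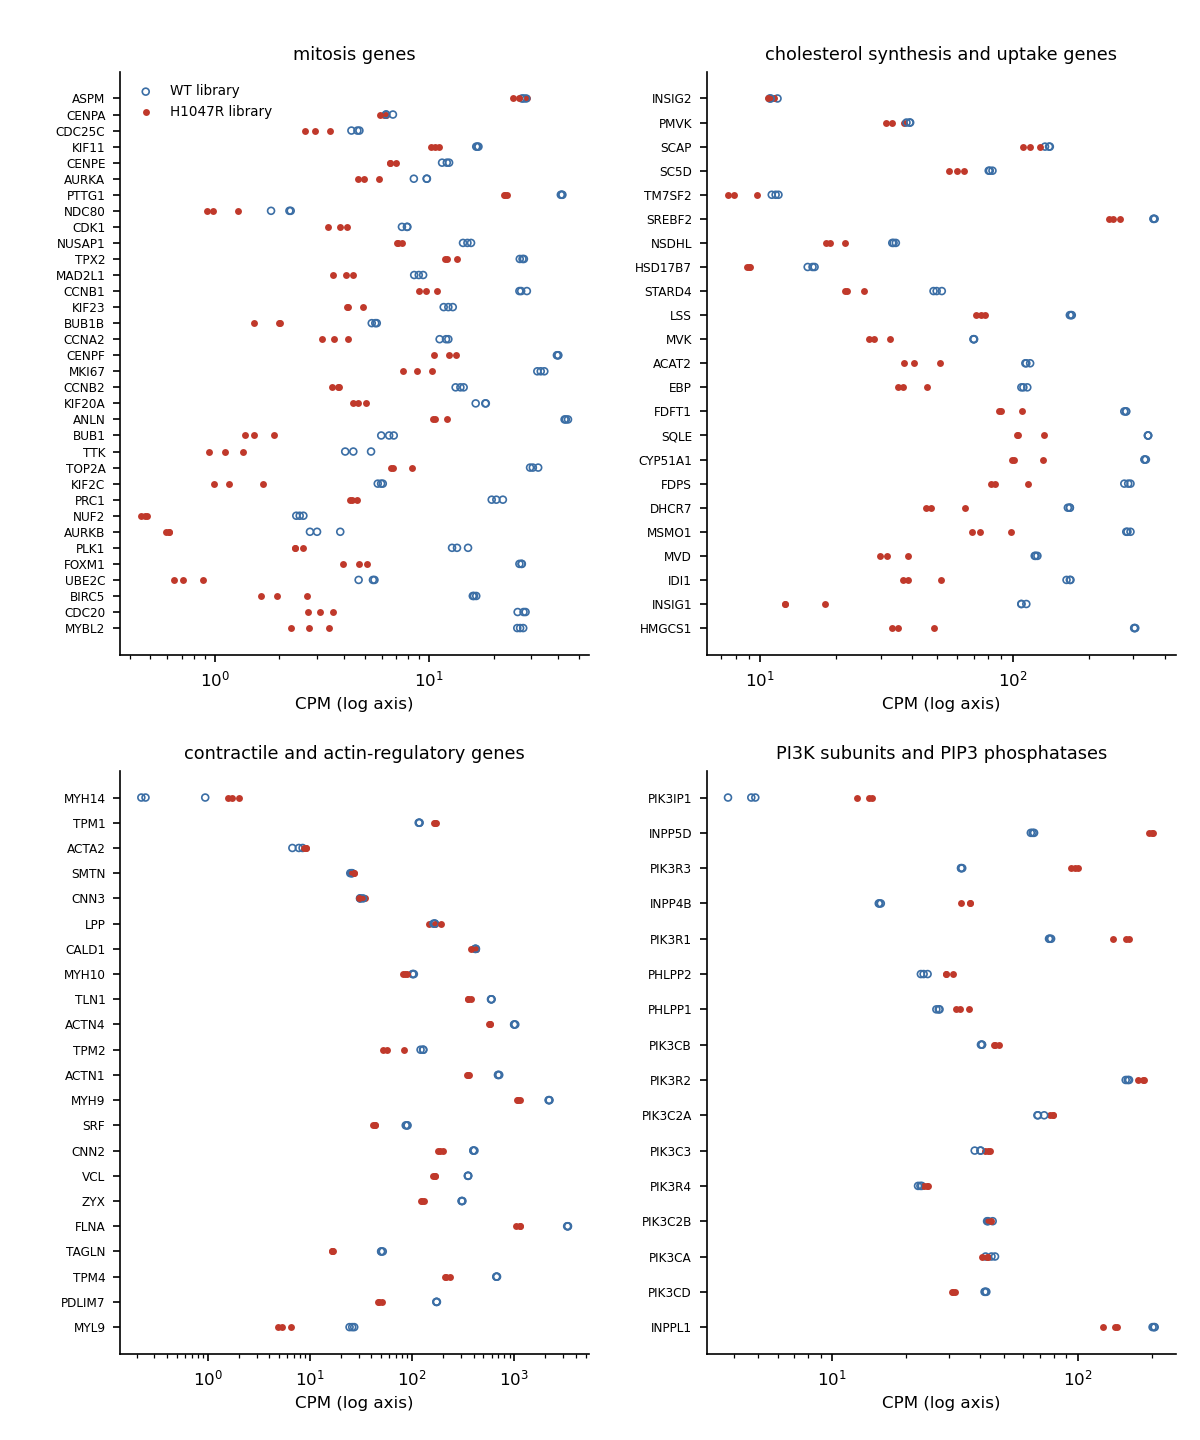
Each row is a tested gene of 1 of 4 lists (some members are not drawn) and each point 1 library at its level (CPM, log axis; open blue WT, filled red H1047R). In the mitosis, cholesterol and actin panels most H1047R points lie left of the WT points, and among PI 3-kinase genes PIK3IP1, INPP5D and PIK3R3 lie to the right while PIK3CA overlaps.

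Genes of mesenchymal character mostly fell, 11 of 17 tested against 3 that rose (median -0.48). MMP2, a gelatinase, fell by 3.03 and AXL, a receptor kinase, by 1.35, while CDH2 fell by 0.42. TCF4 rose by 1.10, TNC, for tenascin C, by 0.67 and CD44 by 0.48. Among matrix proteases and inhibitors 5 of 17 rose (29.4%) and 8 fell (47.1%), beside 35.5% and 34.8% of all genes. Of these 17, 3 passed the filter through 1 group alone. MMP7 rose by 3.04 and TIMP1 fell by 1.40, from 194, 193 and 187 CPM to 83.5, 69.5 and 64.3 CPM. MMP14, the membrane collagenase, fell by 0.74.

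Collagen IV alpha 1 and alpha 2 fell together, COL4A1 from 153, 157 and 154 CPM to 66.8, 66.8 and 63.5 CPM (-1.23) and COL4A2 by 1.30. COL7A1, for anchoring fibrils, rose by 1.01 and COL17A1, a hemidesmosome protein, by 0.74 (773, 800 and 783 CPM in WT, 1225, 1328 and 1395 CPM in H1047R). Over 18 collagen genes tested 11 rose and 6 fell, with COL6A3 at -6.23. With edgeR's own filter, 10 collagen genes were at least 2-fold lower and 0 at least 2-fold higher, against 5 and 1 here. The collagen median was then -0.126, against 0.251 here. The laminin genes LAMA3 and LAMB3 fell by 0.99 and 0.77, as did the integrin genes ITGA5 (1.39), ITGA3 (0.83) and ITGB4 (0.61). ITGB6 rose by 0.58 and ITGB8 by 0.78. In that list 8 of 23 rose (34.8%) and 15 fell (65.2%), beside 35.5% and 34.8% of all genes. Without WT replicate 1, or with scaling by library totals, 5 of that list rose.

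YAP-TEAD targets fell in 15 of 24 cases and rose in 6 (median -0.15). CCN2, for connective tissue growth factor, had 185, 182 and 181 CPM in WT and 59.5, 67 and 57 CPM in H1047R, a fall of 1.58. NT5E fell by 1.92 and AMOTL2 by 1.08, but CCN1 overlapped between groups and was not called (0.03). Genes of TGF-beta, activin and BMP signalling fell in 12 of 23 cases (52.2%) and rose in 7 (30.4%), beside 34.8% and 35.5% of all genes. TGFBI, a matrix protein induced by TGF-beta, had 8066, 8271 and 8071 CPM in WT and 2460, 2375 and 2377 CPM in H1047R, a fall of 1.76, INHBA, the activin A subunit gene, fell by 4.14 and ID1 by 1.77. The receptor genes TGFBR2 and TGFBR3 rose by 1.16 and 0.95.

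The sterol pathway was lower almost throughout. Of 26 tested genes for cholesterol synthesis and uptake 24 fell, 16 of them at least 2-fold, and 1 rose (median -1.34), and all 26 were at 1 CPM or more in every library. HMGCS1, which makes HMG-CoA, had 305, 303 and 302 CPM in WT and 48.8, 35.2 and 33.2 CPM in H1047R (ENSG00000112972.15, chr5:43287470-43313512), a fall of 2.96 (standard error 0.13, adjusted p = 4.36e-08), with other genes over 37.7% of its exon bases. INSIG1, the sterol sensor that retains SCAP, fell by 2.94, IDI1, the isopentenyl diphosphate isomerase gene, by 1.98 and MVD, the mevalonate diphosphate decarboxylase gene, by 1.88. In H1047R, replicate 1 was the highest of the 3 for HMGCS1, INSIG1 and IDI1, but remained below each WT library.

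Fatty acid genes fell in 17 of 25 cases and rose in 7 (median -0.33). SCD, the stearoyl-CoA desaturase, had 1913, 1917 and 1904 CPM in WT and 576, 355 and 351 CPM in H1047R, a fall of 2.16, and ACLY, which supplies cytosolic acetyl-CoA, fell by 1.39. FASN, the fatty acid synthase, had 1619, 1634 and 1617 CPM in WT and 1371, 1437 and 1636 CPM in H1047R, so the groups overlapped. It was not called by edgeR (-0.13, adjusted p = 0.0753), but was called lower by DESeq2 (adjusted p = 0.0421), by limma-voom (adjusted p = 0.0133), in the fit of all 9 libraries, with edgeR's own filter, with library totals and without H1047R replicate 3 (-0.21). ELOVL5 rose by 1.01 and ACSL5 by 2.42.

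Among 28 glycolysis and hypoxia genes 11 rose (39.3%) and 13 fell (46.4%), not far from the 35.5% and 34.8% of all genes: GAPDH fell by 0.45, ENO1 by 0.57 and PFKP by 1.13, while SLC2A1, the glucose transporter gene, was not called (-0.06) and NDRG1 rose by 0.41. SLC2A1 was called lower with library totals (-0.14) and with edgeR's own filter (-0.13). NRF2 and redox genes fell in 18 of 25 cases and rose in 4 (median -0.56). FTL, for ferritin light chain, fell by 1.67, TKT, a pentose phosphate enzyme, by 1.53 (2134, 2166 and 2118 CPM in WT, 797, 719 and 709 CPM in H1047R) and NQO1 by 1.05, whereas GCLC, for the glutathione-making ligase, rose by 1.17. Of 27 amino acid response genes 10 rose (37.0%) and 11 fell (40.7%), again near the shares of all genes, ATF4 itself at 0.02 and not called. The largest fall was that of SLC7A5, the leucine transporter LAT1, with 5312, 5355 and 5265 CPM in WT and 1550, 1360 and 1373 CPM in H1047R (-1.90). Its partner chain SLC3A2 fell by 1.36. Lysosome and autophagy genes rose in 15 of 33 cases (45.5%) and fell in 11 (33.3%), GAA by 1.10 up and CTSZ by 0.90 down.

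Antiviral and antigen presentation genes were mostly higher. Of 32 interferon-stimulated genes tested 24 rose and 6 fell (median 0.49), 3 of the 32 having passed the filter through 1 group alone. IFI44L had 1.03, 1.34 and 1.08 CPM in WT and 6.93, 8.90 and 7.97 CPM in H1047R (2.79), SAMD9L rose by 1.96, and ISG15 by 0.26. GBP1, induced by interferon gamma, fell by 1.56, and the signal transducer STAT2 by 0.40. Of 19 antigen presentation genes 12 rose and 2 fell: HLA-B had 88.8, 91.8 and 91.9 CPM in WT and 179, 182 and 184 CPM in H1047R (1.00), and B2M rose by 0.94. CD74 at -0.43 and NLRC5 at -0.20 were called lower, calls that were lost in 4 and 3 of the 6 fits without 1 library.

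Of 12 interleukin-1 family genes tested 6 rose and 5 fell. IL1B had 26.8, 28.4 and 29.3 CPM in WT and 1.02, 1.21 and 1.14 CPM in H1047R, a fall of 4.64 (standard error 0.08), and IL1A fell by 1.03. IL1R1, the signalling receptor, rose by 1.96 and IL18R1 by 1.34. Chemokine and cytokine genes rose in 11 of 15 cases and fell in 2 (median 0.85), CXCL14, an epithelial chemokine, from 14.5, 14.8 and 15.5 CPM to 79.5, 92.7 and 101 CPM (2.61), with CXCL2 at 1.40 and TNFSF10, for TRAIL, at 1.38. IL32 and the oncostatin receptor gene OSMR fell by 0.86 and 0.78.

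Of the Notch genes, NOTCH3, NOTCH2 and NOTCH1 rose and several ligand genes fell. NOTCH3 had 172, 175 and 171 CPM in WT and 346, 367 and 412 CPM in H1047R (1.12), NOTCH2 rose by 0.84 and NOTCH1 by 0.66, DLL1 fell by 1.90, DLL3 by 1.31 and JAG2 by 0.38, and JAG1 was not called (-0.06). JAG1 was called lower with library totals, with edgeR's own filter and without H1047R replicate 3. Over the list 7 of 18 rose (38.9%) and 8 fell (44.4%), near the shares of all genes. WNT genes rose in 9 of 32 cases (28.1%) and fell in 10 (31.2%), no more often than all genes: WNT5A rose by 1.64, TCF7L1 fell by 2.20 and DKK1, a WNT antagonist, fell by 2.78 (113, 112 and 117 CPM in WT, 18.4, 16.7 and 14.6 CPM in H1047R). AXIN2, the usual readout of beta-catenin activity, overlapped between groups (0.10, not called). Without H1047R replicate 1 AXIN2 was called higher (0.23). Retinoid genes rose in 7 of 15 cases (46.7%) and fell in 5 (33.3%), beside 35.5% and 34.8% of all genes. Of these 15, 3 passed the filter through 1 group alone. RDH10 rose by 1.77 and CRABP2 by 1.75, while STRA6 fell by 3.06 and DHRS3 by 1.40. Of 17 tested HOX genes 0 rose and 12 fell (median -0.41), HOXA2 by 1.24 and HOXA3 by 0.92. By edgeR 0 were higher at an unadjusted p under 0.05, and DESeq2 and limma-voom called 0 higher. With edgeR's own filter, and with no filter, 1 was called higher, and at a mean of 5 CPM 4 were lower. Of 9 gap junction genes 2 rose and 4 fell, GJB2 by 1.80.

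Several of the steepest single changes lay outside these lists. SLC15A2, a peptide transporter gene (chr3:121894401-121944188), had 0.564, 0.568 and 0.459 CPM in WT and 21.7, 28.7 and 25.3 CPM in H1047R, a rise of 5.56. MCAM, a cell adhesion molecule gene (chr11:119308529-119321521), had 42.6, 45 and 42.5 CPM in WT and 2.77, 1.90 and 1.78 CPM in H1047R, a fall of 4.35. IGFBP6, whose product binds IGF-II (chr12:53097436-53102345), went from 173, 174 and 170 CPM to 12.4, 7.59 and 7.21 CPM (-4.25). SEMA3B, a secreted semaphorin gene (chr3:50267558-50277546), fell by 4.05 and ADAM19, a membrane protease gene (chr5:157395534-157575775), by 3.89. These 5 genes were chosen as large changes without overlap between the groups, so their separation was fixed by the choice. SLC15A2 passed the filter only through the H1047R libraries. Among the calls, 16-fold or greater changes numbered 114 rises and 44 falls, including genes that passed through 1 group alone.

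Of 17 abundant small structural RNAs tested 13 rose and 0 fell (median 0.70), with 0 lower at an unadjusted p under 0.05 by edgeR and 0 called lower by DESeq2 or limma-voom. By edgeR 1 was called lower without H1047R replicate 1 and 1 with no filter on low counts. RN7SL1, the RNA of the signal recognition particle, had 20894, 20586 and 20825 CPM in WT and 43609, 44780 and 43359 CPM in H1047R, the largest gain in CPM of any gene. RN7SK rose by 0.50, RMRP by 0.74 and RPPH1 by 1.32, each with its whole length inside other annotated genes, so that the same reads were counted more than once. Of 165 processed pseudogenes tested 64 (38.8%) were at least 2-fold higher and 4 at least 2-fold lower (median 0.60), against 6.39% at least 2-fold higher among protein-coding genes. Mitochondrially encoded mRNAs rose in 7 of 13 cases and MT-CO2 fell by 0.38; 3 were lower without H1047R replicate 1, and 0 without H1047R replicate 2, WT replicate 1 or WT replicate 2. In H1047R, replicate 1 was the highest for MT-ND1 (500, 424 and 361 CPM against 271 to 307 CPM in WT). These classes moved with the count table as well as with the genotype, and their part in the gene results was not tested. Cytosolic ribosomal protein genes moved little, 14 of 74 higher and 14 lower (median -0.03). Without H1047R replicate 1 the number lower was 38, and with library totals 31. The largest noncoding falls were MT1L, a metallothionein pseudogene (15.9, 15.6 and 15.1 CPM in WT, 0.0442, 0.0119 and 0.0177 CPM in H1047R), H19 (-5.80) and VIM-AS1 (-5.34), the last with 31.9% of its exon bases under other genes.

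Along the genome the protein-coding genes were evenly spread around 0, with a few windows apart. Of 153 windows of 20 Mb with at least 20 tested genes, 144 had a median within 0.2 of 0. The lowest were at 0 to 20 Mb (-0.39, 44 genes) and 20 to 40 Mb (-0.30, 31 genes) of chromosome 5 and at 80 to 100 Mb of chromosome 13 (-0.31, 21 genes). Over the first 40 Mb of chromosome 5, 55 of 75 genes (73.3%) were called lower and 10 higher. The highest window was 140 to 160 Mb of chromosome 5 (0.36, 145 genes). It holds the clustered protocadherins, cell-surface adhesion genes whose variable first exons share constant ones: 44 of 47 tested were called higher and 1 lower (median 0.94), and without them the median of the other 98 genes was 0.02. Other annotated genes cover up to 99.9% of a protocadherin's exon bases, so these members are not independent counts.

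**Figure D5:**
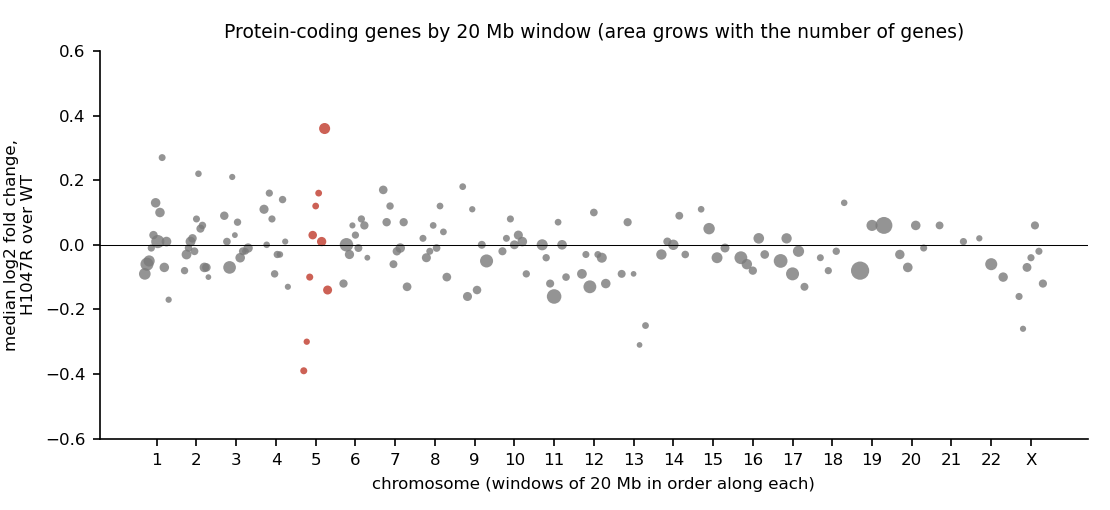
Each point is a 20 Mb window with at least 20 tested protein-coding genes, in order along its chromosome, at the median log2 fold change, H1047R over WT (larger points hold more genes). Chromosome 5, in red, has both the lowest window (-0.39) and the highest (0.36), and chromosome 13 has 2 windows at -0.31 and -0.25.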

How the data were processed

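Per the file headers, the authors counted reads per gene with featureCounts 2.0.0 against GENCODE 32 on hg38, in 2 separate runs (WT with E545K, and H1047R), over exons. Each mate was counted by itself, strand was not used, and reads over several genes counted for each; the deposited values are raw counts. Gene lengths in the same tables are the authors' own. Per the submitters' processing notes, reads were trimmed with Trim Galore 0.4.0 and aligned with STAR; settings are not given in the sources used here.

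From these counts the 2 tables were joined by gene ID, and 60340 of 60609 IDs were named from GENCODE 44. edgeR 4.0.16 (R 4.3.3) gave TMM-scaled CPM and the quasi-likelihood test over the 16510 genes with at least 1 CPM in 3 of 6 libraries. It was checked on simulated data. SE is the absolute log2 fold change over the root of the F statistic. Alternatives were DESeq2 1.42.0, limma-voom 3.58.1, 2 other scalings, 3 other filters, all 9 libraries, protein-coding genes only, H1047R thinned to 109090028 counts, a replicate block and leaving out each library.

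The genes and lists were chosen with earlier results of these data known. Named were PIK3CA, the 12 largest rises and falls (protein-coding, no overlap, at least 2-fold, at least 10 CPM), the 12 largest gains and losses in CPM, 3 noncoding genes each way, and of each list the first 3 members, the 5 largest changes each way and up to 5 called against the majority. Not all are printed, and some members are not reported here. Promoters are RefSeq's, on GRCh38.p14, and promoter genes were the largest changes holding the letters. SOD2 is not analysed here. NUF2 and UHRF1 entered through their promoters, and KRT19, NPY1R, TFF1, PGR, GFRA1, MTARC2, DCP1B and SNAP91 after their values were seen. Floors of 3 counts cover counting error only.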

Additional observations from a re-analysis of the deposited data

How the results depend on the processing

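The calls covered fewer or more genes where the filter changed the number of genes tested. Genes called and at least 2-fold higher numbered 2567 and lower 2041 with edgeR's own filter (28472 genes), 3175 and 2807 with every gene that had a count (49790 genes), and 573 and 462 at a mean of 5 CPM (12301 genes), against 1229 and 914. PIK3CA was called lower under library totals (-0.15) and edgeR's own filter (-0.14). Leaving out each library gave 5290 to 6157 genes higher, 5175 to 6093 lower, 1158 to 1300 at least 2-fold higher and 905 to 958 at least 2-fold lower, and PIK3CA at -0.11 to -0.04. DESeq2 called 5902 higher and 5768 lower, limma-voom 5954 and 5847, and the thinned counts 5743 and 5728.

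Replicate numbers are shared between the groups. Deviations of same-numbered libraries were weakly related (r = 0.0687, -0.0103 and 0.0997), beside -0.122 to 0.0598 for the other pairs. With 3 libraries per group this cannot tell whether same-numbered libraries were handled together. With the replicate block 5798 genes were higher, 5701 lower, 1218 at least 2-fold higher and 920 at least 2-fold lower, and PIK3CA was at -0.07.

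Of 472 named genes tested, 0 reversed as a call under those of the 17 alternatives that gave them a value (374 genes at a mean of 5 CPM, 454 with protein-coding genes only, 472 in each other), 23 lost their call in at least 1 and 9 gained a call in at least 1. The medians of 9 of 46 lists changed sign in some alternative, and the main medians of these 9 were within 0.251 of 0. Of the 6 marker lists, counted apart, 4 changed sign: basal from 0.05 to -0.03 with library totals, and fibroblast from 0.32 to -0.71, other epithelia from 0.34 to -0.90 and endothelial from 1.41 to -0.75 with no filter.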

Other observations

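A few genes were at 0 in all H1047R libraries while present in WT (chosen after their values were seen). MTARC2, a mitochondrial reductase gene (ENSG00000117791.16, chr1:220748225-220784815), had 692, 554 and 502 counts in WT and 0 in each H1047R library. WT was at 5.23 ± 0.355 CPM (SD, n = 3), so against 3 counts per H1047R library (0.00642 CPM on average) it was at least 813-fold lower in H1047R. The E545K libraries had 764, 572 and 517 counts. Every tested gene starting within 300 kb of it was counted in H1047R and was called lower. MTARC1 was at 12.5 CPM in WT and 4.09 CPM in H1047R (-1.61), and C1orf115 at 17.9 and 10.6 CPM (-0.76). The log2 fold changes of MARK1, HLX and ENSG00000286231 were -0.72, -1.37 and -1.60.

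DCP1B, an mRNA decapping cofactor gene (chr12:1946053-2004535), had 586, 381 and 362 counts in WT, 0 in each H1047R library and 8, 9 and 2 in E545K. It was at least 609-fold lower in H1047R than in WT. Its neighbour ADIPOR2 was at 94.6 CPM in WT and 69.2 CPM in H1047R and was also called lower (-0.45). SNAP91, a clathrin adaptor gene (chr6:83552880-83709691), had 143, 115 and 101 counts in WT, 0 in H1047R and 41, 14 and 35 in E545K, and was at least 167-fold lower. The long noncoding RNA LINC01322 had 790, 521 and 517 counts in WT and 0, 2 and 0 in H1047R. These bounds cover counting error only, and no test of the DNA was possible with these tables.

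Across the 12934 protein-coding genes the log2 fold change was weakly related to exon length (Spearman's rho = 0.146, a description over genes that share the same 6 libraries).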
